A study of Homo sapiens with 12 samples.

Results

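Uroplakins are the membrane proteins that pave the apical surface of the bladder, and UCA1 is a long non-coding RNA first described in bladder cancer. The set comprised the 4 uroplakin genes UPK1A, UPK1B, UPK2 and UPK3A together with UCA1, or 5 of the 18417 genes with a probe set assigned to a single symbol. Members were chosen by symbol in the array annotation, and where a gene has several probe sets, the brightest one stands for it; each member had exactly 1. The set was proposed with measured values in view, and UCA1 and UPK1B are taken as chosen for their high values in the TLR4-D299G line, so their differences that involve this line are given as a description, without a test. UPK1A, UPK2 and UPK3A are the remaining uroplakins with a probe set of their own and are taken as chosen for their family. Why each was proposed was not stated, so their tests rest on this assumption. UPK3B, UPK3BL1 and UPK3BL2 had no such probe set and were not analysed here.

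The study compared Caco-2 cells, a line from a human colon carcinoma that can form an enterocyte-like layer, in 4 groups of 3 RNA samples. Stable clones carried HA-tagged TLR4, the receptor for bacterial lipopolysaccharide, as wild type (TLR4-WT) or as the mutants TLR4-D299G and TLR4-T399I. They were made by transfection with 1 µg of plasmid per well and selected with blasticidin. Control cells were untransfected and had received no foreign DNA, so transfection, selection and clonal outgrowth separate them from every TLR4 line, and no line with an empty vector was among the groups. All cells grew for 8 days before RNA extraction. The labels do not say how many clones a line comprises, nor whether the 3 samples of a group were separate cultures, so the p-values rest on the scatter among 3 samples per group, and this scatter may be technical. Each TLR4 line is compared as a line, and its substitution cannot be told apart from other differences between clones.

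Values are log2 expression values from Affymetrix whole-transcript arrays, deposited for 33297 probe sets. Array medians ran from 6.88 to 6.97 and lower quartiles from 5.20 to 5.29, and the number of arrays limits the precision. TLR4 lay between 4.59 and 5.12 in untransfected cells and between 8.29 and 8.89 on the 9 arrays of the TLR4 lines, with no overlap. Its log2 means were 8.81 in TLR4-D299G, 8.61 in TLR4-WT and 8.34 in TLR4-T399I, and the lines did not overlap. TLR4 was higher in TLR4-D299G than in TLR4-T399I by 0.47 on the log2 scale (limma adjusted p = 0.0214). Against TLR4-WT the limma adjusted p was 0.328 for TLR4-D299G and 0.210 for TLR4-T399I. Of 10 measured markers of intestinal epithelium, 6 lay above the upper quartile of every array (VIL1, CDX2, CDH17, EPCAM, KRT8 and KRT18), while CDX1, GPA33, LGALS4 and KRT20 did not, KRT20 being lowest at 5.80. The arrays give no detection calls, so the level of background is unknown. Folds against a group near or below the array median may therefore understate the change, and levels are not compared between probe sets.

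Uroplakins work in pairs. The tetraspanins UPK1A and UPK1B, which cross the membrane repeatedly, bind the single-pass proteins UPK2 and UPK3A respectively, and the pairs form the rigid plaques of umbrella cells, the superficial cells of the urothelium. UPK1B can leave the endoplasmic reticulum alone, while the other members of the pairs need their partner. UPK1B is also known to be made in more epithelia than its partner, and uroplakin plaques are not a feature of the intestine. UCA1 is transcribed from chromosome 19 and has been linked to growth and metabolism in several carcinomas, colorectal carcinoma included. UPK1A also lies on chromosome 19, UPK1B on chromosome 3, UPK2 on chromosome 11 and UPK3A on chromosome 22, so no member is a near neighbour of another.

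The promoter windows of the tetraspanins are shown because these related genes behaved differently across the lines. They are the RefSeq sequences of build GRCh38.p14, plus strand, from 250 bases before to 50 bases after the start of the gene, for UPK1B at chr3:119173348-119173647 and for UPK1A at chr19:35666267-35666566. Capitals mark matches to any of 7 motifs searched on both strands.
UPK1B: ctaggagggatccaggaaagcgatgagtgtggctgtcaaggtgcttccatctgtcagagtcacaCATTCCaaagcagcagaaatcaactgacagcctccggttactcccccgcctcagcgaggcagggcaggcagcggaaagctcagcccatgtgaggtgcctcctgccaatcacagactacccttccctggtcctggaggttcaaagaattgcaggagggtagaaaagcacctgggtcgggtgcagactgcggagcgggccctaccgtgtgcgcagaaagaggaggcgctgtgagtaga
UPK1A: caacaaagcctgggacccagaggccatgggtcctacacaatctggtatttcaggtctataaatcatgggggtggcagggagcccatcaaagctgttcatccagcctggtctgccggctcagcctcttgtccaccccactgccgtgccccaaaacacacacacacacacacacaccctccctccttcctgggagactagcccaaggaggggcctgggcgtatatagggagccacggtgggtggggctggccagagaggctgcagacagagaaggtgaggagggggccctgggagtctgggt
UPK1B held 1 match, CATTCC, the core that TEAD factors recognise, whose first base lies at position -186 relative to the start. CATTCC occurred in 14.0% of 27305 promoter windows of this length. UPK1A held none of the 7. The other motifs were ACGTG (hypoxia-inducible factors, 21.6% of windows), TGANTCA (AP-1, 7.76%), GATAAG (for the GATA family, 6.36%), GGAAGT (ETS factors, 23.2%) and the C/EBP sites TTGCGCAA (0.128%) and TTGCACAA (0.795%). None of the motifs overlapped another in these windows. A match describes the letters only. No window of UCA1, UPK2 or UPK3A was in the reference used.

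UPK1B was high in TLR4-D299G cells and low in the other groups. Its log2 values were 9.85, 9.93 and 9.88 in the TLR4-D299G line, 6.54, 6.85 and 6.74 in TLR4-WT, 6.02, 6.27 and 6.41 in TLR4-T399I, and 6.49, 6.47 and 6.56 in untransfected cells. All 3 TLR4-D299G arrays stood clear of the other 9, while TLR4-WT overlapped untransfected cells and all TLR4-T399I arrays lay below both. On the log2 scale the mean was 9.89 ± 0.04 (SD, n = 3) in TLR4-D299G, 6.71 ± 0.16 in TLR4-WT, 6.51 ± 0.05 in untransfected cells and 6.23 ± 0.20 in TLR4-T399I. UPK1B was thus 10.4-fold higher in TLR4-D299G than in untransfected cells (log2 difference 3.38, standard error 0.10), and 12.6-fold higher than in TLR4-T399I, the lowest group. In bulk RNA, more cells that express a gene and more RNA per cell cannot be told apart.

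Among the groups other than TLR4-D299G, UPK1B passed the test between TLR4-T399I and TLR4-WT, where it was lower by 1.39-fold in TLR4-T399I (log2 difference -0.48, standard error 0.10, limma adjusted p = 0.0136). Adjusted p-values are from limma's moderated test over all 12 arrays, with Benjamini-Hochberg adjustment over all probe sets, and 0.05 is the threshold throughout. The TLR4-T399I against TLR4-WT difference of UPK1B missed it without TLR4-WT replicate 2 (limma adjusted p = 0.0597, log2 difference -0.41) and when the model was fitted to the 6 arrays of these groups (limma adjusted p = 0.0784). Against untransfected cells the log2 difference was -0.27 in TLR4-T399I (limma adjusted p = 0.0703; 0.0307 without TLR4-T399I replicate 3) and 0.20 in TLR4-WT (limma adjusted p = 0.158). The order of UPK1B was thus TLR4-D299G, TLR4-WT, untransfected, TLR4-T399I, and neither of the last 2 steps passed the test.

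UPK3A, the single-pass partner of UPK1B, was also highest in TLR4-D299G, by a smaller margin. Its log2 values were 7.64, 7.29 and 7.52 in TLR4-D299G, 6.73, 6.82 and 6.87 in TLR4-WT, 6.86, 6.42 and 6.66 in TLR4-T399I, and 6.41, 6.34 and 6.57 in untransfected cells. The TLR4-D299G arrays lay above all others, and TLR4-T399I overlapped both TLR4-WT and untransfected cells. UPK3A rose 2.06-fold in TLR4-D299G against untransfected cells (log2 difference 1.04, standard error 0.12, limma adjusted p = 7.25e-05). UPK3A rose 1.60-fold against TLR4-WT (limma adjusted p = 0.00244) and 1.79-fold against TLR4-T399I (limma adjusted p = 0.000823). These 3 calls of UPK3A held under all 17 alternatives tried.

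UPK3A also passed in TLR4-WT against untransfected cells, by 1.29-fold (log2 difference 0.37, standard error 0.12, limma adjusted p = 0.0397). This smaller call of UPK3A was lost without any 1 of the 3 TLR4-WT arrays, TLR4-D299G replicate 3, TLR4-T399I replicate 3, or untransfected replicate 1 or 2 (limma adjusted p from 0.0533 to 0.123). It was also lost with arrays centred on their medians (limma adjusted p = 0.0547). In TLR4-T399I, UPK3A did not pass against untransfected cells (log2 difference 0.21, 95% interval from -0.06 to 0.47). It did not pass against TLR4-WT either (log2 difference -0.16, 95% interval from -0.43 to 0.11).

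UPK1A, the tetraspanin of the other pair, did not pass in any of the 6 comparisons. Its log2 values were 5.28, 5.69 and 5.36 in TLR4-D299G, 5.55, 5.38 and 5.16 in TLR4-WT, 5.26, 5.33 and 5.49 in TLR4-T399I, and 5.45, 5.56 and 5.31 in untransfected cells. All 4 groups overlapped, near the lower quartile of the arrays, and their means spanned 0.08. Between TLR4-D299G and untransfected cells the log2 difference of UPK1A was below 0.01 in size, with a 95% interval from -0.28 to 0.29.

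UPK2, the single-pass partner of UPK1A, differed by small amounts. Its log2 values were 6.98, 6.91 and 7.04 in TLR4-D299G, 6.83, 6.72 and 6.94 in TLR4-WT, 6.96, 6.89 and 6.89 in TLR4-T399I, and 6.66, 6.68 and 6.73 in untransfected cells. Untransfected cells were lowest, below every TLR4-D299G and TLR4-T399I array, and overlapped TLR4-WT. UPK2 was 1.22-fold higher in TLR4-D299G than in untransfected cells (limma adjusted p = 0.00818) and 1.17-fold higher in TLR4-T399I (limma adjusted p = 0.0315).

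The call of UPK2 in TLR4-T399I was lost without any 1 of the 3 TLR4-T399I arrays or untransfected replicate 1 or 2 (limma adjusted p from 0.0520 to 0.0892), with a trended and robust prior (0.0738) and when the other groups were left out of the fit (0.0820). UPK2 passed in none of the comparisons among the 3 TLR4 lines. The largest of these differences was 0.15 between TLR4-D299G and TLR4-WT (95% interval from -0.01 to 0.30).

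UCA1 was high in TLR4-D299G, intermediate in TLR4-T399I and low in the other groups. Its log2 values were 10.61, 10.85 and 10.63 in TLR4-D299G, 8.03, 8.06 and 7.96 in TLR4-T399I, 7.17, 7.02 and 7.11 in TLR4-WT, and 7.15, 7.17 and 6.99 in untransfected cells. A high, a middle and a low level without overlap can be read from these arrays, the lowest shared by TLR4-WT and untransfected cells. The group means were 10.70 ± 0.13 (SD, n = 3), 8.02 ± 0.05, 7.10 ± 0.08 and 7.10 ± 0.10 in that order of groups. UCA1 was 12.1-fold higher in TLR4-D299G than in TLR4-WT (log2 difference 3.60, standard error 0.08) and 6.41-fold higher than in TLR4-T399I.

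UCA1 rose 1.88-fold in TLR4-T399I against untransfected cells (log2 difference 0.91, standard error 0.08, limma adjusted p = 1.45e-05). Against TLR4-WT it rose 1.89-fold (log2 difference 0.92, standard error 0.08, limma adjusted p = 6.59e-05). Both calls held under all 17 alternatives, with log2 differences from 0.86 to 0.95 and from 0.88 to 0.96. These comparisons share the TLR4-T399I arrays. In TLR4-WT, UCA1 did not pass against untransfected cells, with a 95% interval of the log2 difference from -0.19 to 0.18.

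**Figure D1:**
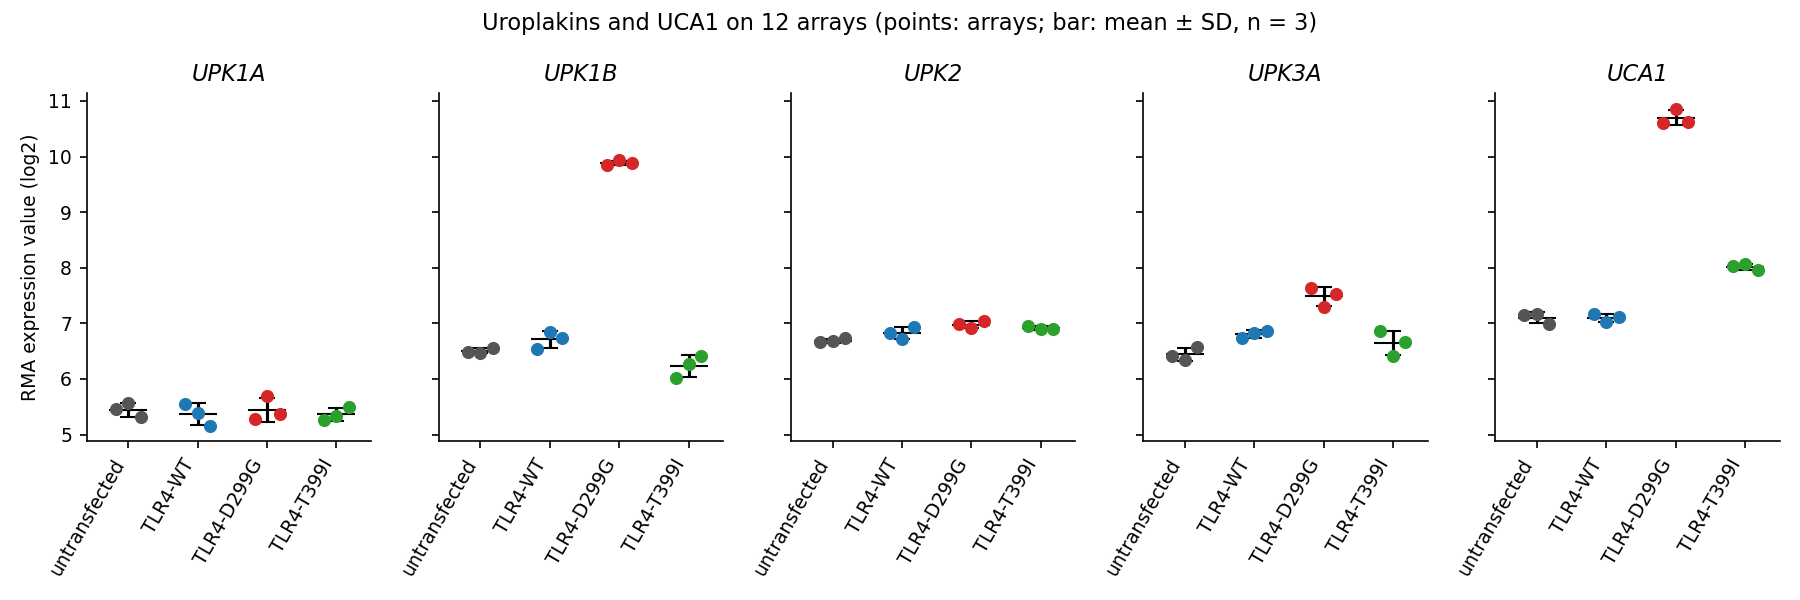
Log2 expression value (vertical axis) of each member on each array, by group; points are arrays, bars the mean ± SD (n = 3), and levels are comparable within a panel only. UPK1B and UCA1 reach 9.85 or more on every TLR4-D299G array, UCA1 alone has a middle level in TLR4-T399I (7.96 to 8.06), and UPK1A shows 4 overlapping groups.

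The members were set against all genes in each comparison. In TLR4-D299G against untransfected cells, the groups did not overlap for 4 of 5 members, as for 56.2% of all genes. Of the 3 members tested there, UPK2 and UPK3A were called, beside 43.3% of all genes. Against TLR4-WT the TLR4-D299G arrays did not overlap for UPK1B, UPK3A and UCA1, as for 42.7% of genes, and UPK3A was the 1 called of 3 tested (23.1% of genes). The same 3 members did not overlap between TLR4-D299G and TLR4-T399I (36.9% of genes), and again UPK3A was called, and higher (19.1% of genes called, 8.43% higher). A count of members in these comparisons is thus close to the background and says little. The size sets UCA1 and UPK1B apart, but it also chose them: in TLR4-D299G against untransfected cells their differences ranked 5 and 8 among 18417 genes, and UPK3A ranked 194.

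In the comparisons without TLR4-D299G all 5 members were tested. UPK3A was the 1 member called in TLR4-WT against untransfected cells, where 38.3% of genes were called, and the 1 whose groups did not overlap (51.8% of genes). In TLR4-T399I against untransfected cells UPK2 and UCA1 were called higher, beside 18.1% of genes called higher and 36.6% called in either direction. UPK1B joined them among the 3 members without overlap (45.2% of genes). In TLR4-T399I against TLR4-WT, UCA1 rose (8.37% of genes) and UPK1B fell (6.02%), where 14.4% of genes were called and 32.5% did not overlap. With arrays centred, 8.63% and 3.72% of genes were called higher and lower there. Over the 24 tested differences of members, 9 were called, beside 14.4% to 43.3% of all genes in the single comparisons. Of these 9, 8 were higher in the first group named, a count that depends on which group is named first. The comparisons share groups, so these counts are not independent.

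UCA1 and UPK1B, which both had their highest values in TLR4-D299G, went opposite ways in TLR4-T399I against TLR4-WT. The within-array difference of log2 values, UCA1 minus UPK1B, was 0.81 ± 0.10 (SD, n = 3) in TLR4-D299G, 0.39 ± 0.23 in TLR4-WT and 0.60 ± 0.15 in untransfected cells. In TLR4-T399I it was 1.78 ± 0.23, with arrays from 1.55 to 2.01, all above the 0.92 that was the highest elsewhere. The pair was looked at because both members had passed in this comparison, so the values are a description. The level in any 1 group carries the probe sets' own brightness.

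In TLR4-D299G against untransfected cells and against TLR4-WT, the genes beside UCA1 and UPK1B on the chromosome had smaller differences than these members. UCA1 and UPK1B are taken as chosen for their high values in this line, so that contrast follows largely from the choice. The 5 nearest genes on each side with a probe set of their own were taken in RefSeq order. Around UCA1 these were CYP4F12, OR10H2, OR10H3, OR10H5 and OR10H1 on one side and CYP4F2, CYP4F11, OR10H4, LINC00661 and LINC00905 on the other. The CYP4F genes encode fatty acid hydroxylases and the OR10H genes odorant receptors, and both families hold close copies that may share probe signal. In TLR4-D299G against untransfected cells 0 of 10 were called higher by limma, also at an unadjusted p under 0.05, and 1 was called lower (CYP4F2, log2 difference -0.32, limma adjusted p = 0.0191), where 22.5% and 20.8% of genes were called higher and lower. The highest log2 difference among these neighbours was 0.42, for OR10H1, which did not pass the test, beside 3.59 for UCA1. Against TLR4-WT, CYP4F12 was called higher in TLR4-D299G (log2 difference 0.52, limma adjusted p = 0.00523), at the level of untransfected cells (7.04 and 7.08). In TLR4-T399I, where UCA1 rose as well, 0 of 10 neighbours rose against untransfected cells by limma, also at an unadjusted p under 0.05. CYP4F12 and CYP4F2 fell there (log2 differences -0.42 and -0.43). Of all genes, 18.1% were called higher and 18.5% lower in that comparison, so counts among 10 genes say little.

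Around UPK1B the neighbours were ZBTB20, GAP43, LSAMP, IGSF11 and TEX55 on one side and B4GALT4, ARHGAP31, TMEM39A, POGLUT1 and TIMMDC1 on the other. B4GALT4, a galactosyltransferase and the gene that follows UPK1B, had log2 values of 10.05 in TLR4-D299G and 9.88 in untransfected cells (limma adjusted p = 0.056). ZBTB20, a transcriptional repressor, was called higher in TLR4-D299G against untransfected cells (log2 difference 0.47, limma adjusted p = 0.0460), and TMEM39A was called lower (-0.25). LSAMP, a neural adhesion protein, was at 5.93 in TLR4-D299G and 5.94 in untransfected cells. In TLR4-WT and TLR4-T399I it rose by 0.83 and 1.12 on the log2 scale against untransfected cells (limma adjusted p = 0.000445 and 5.45e-05). Of the 10 neighbours of UPK1B, 0 rose in TLR4-D299G against TLR4-WT by limma (1 at an unadjusted p under 0.05, ZBTB20), and LSAMP and TMEM39A fell there (11.3% and 11.7% of genes were called higher and lower).

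The genes whose profile over the 12 arrays was most like that of UCA1 were found by the root mean square difference of log2 values, each gene centred on its own mean. These genes were picked for their likeness, and their values are a description. The nearest to UCA1 was CLTRN, which encodes collectrin, an amino acid transport protein of the kidney (0.23 on the log2 scale). CLTRN had means of 9.02 in TLR4-D299G, 6.62 in TLR4-T399I, 5.76 in TLR4-WT and 5.89 in untransfected cells. As for UCA1, these form a high, a middle and a low level. ODAM, a secreted protein of tooth and epithelium, and ARHGDIB followed at 0.48 and 0.50, both with a middle level in TLR4-T399I (7.12 and 7.54). UGT2B4, a glucuronosyltransferase, UPK1B, IL2RG, the common chain of several interleukin receptors, PCDHB2, a protocadherin, and TFPI, an inhibitor of coagulation, completed the first 8 (0.55 to 0.63).

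The profile most like that of UPK1B was SLCO1B3, a hepatic organic anion transporter (0.41), with 6.86 in TLR4-D299G and 3.52 to 4.14 in the other groups. A2M, the protease inhibitor alpha-2-macroglobulin, came next at 0.50. Its arrays lay between 11.69 and 11.83 in TLR4-D299G and between 6.79 and 6.84 in TLR4-T399I, below the 7.70 to 8.14 of the remaining 6 arrays. A2M thus had its lowest level in TLR4-T399I, as UPK1B did. UCA1, CLTRN, FGA (the fibrinogen alpha chain), IL2RG, SLC2A2 (a glucose transporter of liver and enterocyte) and CCL20 (an epithelial chemokine) followed at 0.55 to 0.63. UCA1 and UPK1B were on each other's list, and CLTRN and IL2RG were on both.

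Other genes of the urothelial programme were examined in lists that were chosen with earlier results of these data known, so their counts are descriptions. Of 11 measured transcription factors of urothelium, 2 rose and 4 fell in TLR4-D299G against untransfected cells (median log2 difference -0.15, beside 0.07 over all genes). Of all genes, 22.5% were called higher and 20.8% lower in this comparison, against which this list and the following ones are to be read. TBX3 rose 1.36-fold and TBX2 1.21-fold, while FOXA1, GATA3 and RXRA fell 1.44-fold, 1.28-fold and 1.28-fold. PPARG, the nuclear receptor that drives uroplakin expression in urothelium, had log2 means of 8.38 in TLR4-D299G and 8.30 in untransfected cells. PPARG was 2.30-fold lower in TLR4-D299G than in TLR4-WT (limma adjusted p = 1.06e-06), with TLR4-WT at 9.58. KLF5 was 1.73-fold lower in the same comparison (limma adjusted p = 2.86e-05). There 1 factor of 11 rose, TBX3, and 3 fell, beside 11.3% of all genes called higher and 11.7% lower.

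Among 11 keratins and surface proteins of umbrella cells, 5 rose and 1 fell in TLR4-D299G against untransfected cells (median 0.30). KRT18, KRT19 and KRT8, keratins shared with intestinal epithelium, rose 1.57-fold, 1.56-fold and 1.49-fold. KRT18 and KRT8 also rose against untransfected cells in TLR4-T399I (log2 differences 0.61 and 0.53) and in TLR4-WT (0.54 and 0.33). KRT19 rose by 0.29 in TLR4-WT, and its log2 mean was 12.57 in TLR4-T399I and 12.16 in untransfected cells. KRT20, a keratin of umbrella cells and of enterocytes, fell 1.25-fold in TLR4-D299G against untransfected cells. Of 8 measured basal markers 5 rose and 0 fell by limma, also at an unadjusted p under 0.05 (median 0.40, beside 22.5% of all genes higher and 20.8% lower), led by the morphogen SHH at 2.79-fold and the hyaluronan receptor CD44 at 1.80-fold. SHH and CD44 also rose in TLR4-T399I (log2 differences 0.90 and 0.84) and in TLR4-WT (0.68 and 0.71). The basal keratin KRT5 had log2 means from 6.45 to 6.66 in the 4 groups, and PSCA, an umbrella cell antigen, from 6.49 to 6.70, all below the array medians. Other basal keratins differed from KRT5. KRT13 had log2 means of 6.33 in untransfected cells and 6.75 in TLR4-D299G, without overlap of their arrays. KRT14 had means from 7.37 to 7.63, above the array medians.

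Genes of uroplakin vesicle traffic moved in both directions in TLR4-D299G against untransfected cells, 5 of 11 higher and 5 lower (3 and 5 with arrays centred), beside 22.5% and 20.8% of all genes. RAB27B, the GTPase that carries uroplakin vesicles to the apical membrane, had log2 means of 6.58 ± 0.04 (SD, n = 3) in TLR4-D299G, 5.41 ± 0.14 in untransfected cells, 5.35 ± 0.11 in TLR4-WT and 5.58 ± 0.06 in TLR4-T399I. Its TLR4-D299G arrays lay between 6.54 and 6.61, above the 5.28 to 5.65 of all others, and all were below the array medians. RAB27B rose 2.24-fold against untransfected cells (limma adjusted p = 2.59e-06), 2.34-fold against TLR4-WT (limma adjusted p = 2.91e-06) and by 1.00 on the log2 scale against TLR4-T399I (limma adjusted p = 1.83e-05). RAB11A, a GTPase of recycling endosomes, and MYO5B, its motor, fell 1.36-fold and 1.38-fold in TLR4-D299G against untransfected cells. AQP3, a water channel of urothelium and colon, was 2.39-fold lower in TLR4-D299G, 2.38-fold lower in TLR4-WT and lower by -1.29 on the log2 scale in TLR4-T399I. SNX31, which sorts uroplakins, had log2 means from 4.80 to 5.03 in the 4 groups, below the lower quartile of the arrays.

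UPK1A and UPK1B belong to the tetraspanins, of which 30 others were measured. In TLR4-D299G against untransfected cells 13 rose and 7 fell (median 0.16). The largest rise was 1.52-fold, for TSPAN8, beside 10.4-fold for UPK1B, while TSPAN7 fell 5.57-fold, TSPAN12 2.74-fold and TSPAN2 2.09-fold. TSPAN8 rose more in TLR4-WT and TLR4-T399I, by 2.72-fold and 2.53-fold against untransfected cells. TSPAN7 and TSPAN2 also fell in TLR4-WT (5.12-fold and 2.53-fold) and in TLR4-T399I (4.52-fold and 2.24-fold). In TLR4-D299G against TLR4-WT 9 of 30 rose and 6 fell, beside 11.3% of all genes called higher and 11.7% lower. TSPAN15 rose 2.36-fold there, and TSPAN12 and TSPAN8 fell 2.10-fold and 1.79-fold. In TLR4-WT against untransfected cells 5 rose and 9 fell, or 2 and 11 with arrays centred. Of all genes, 19.3% were called higher in that comparison and 19.0% lower, and centring the arrays gave 13.3% and 20.9%.

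Factors reported elsewhere to act at the UCA1 gene gave 4 higher and 5 lower of 13 in TLR4-D299G against untransfected cells (median -0.15). ETS2 rose 2.16-fold there and 2.27-fold in TLR4-WT against untransfected cells. TBX3 rose 1.36-fold in TLR4-D299G (limma adjusted p = 0.000435), with log2 means of 8.15 in TLR4-D299G, 7.92 in TLR4-T399I, 7.66 in TLR4-WT and 7.70 in untransfected cells. SATB1 rose 1.50-fold, but all its arrays lay between 4.38 and 5.18, below the lower quartile of the arrays. SMAD3, SP1 and SMAD4 fell 1.73-fold, 1.53-fold and 1.40-fold. CEBPA was lower in TLR4-T399I than in untransfected cells (log2 difference -0.57, limma adjusted p = 8.78e-05). Whether any of these factors has a part in the values of UCA1 was not tested.

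Genes reported elsewhere to lie downstream of UCA1 were called higher in 4 and lower in 4 of 14 in TLR4-D299G against untransfected cells (median 0.05). HK2, a hexokinase of glycolysis, rose 2.40-fold in TLR4-D299G and 2.22-fold in TLR4-WT, and PTBP1, a splicing factor, rose 1.48-fold and 1.51-fold in these lines. CREB1, a transcription factor, EZH2, a histone methyltransferase, and MTOR, a growth kinase, fell in TLR4-D299G (log2 differences -0.53, -0.26 and -0.25). Against TLR4-WT, where UCA1 was 12.1-fold higher, 2 of 14 rose and 1 fell, beside 11.3% of all genes called higher and 11.7% lower. STAT3 rose 1.63-fold, having log2 means of 10.38 in TLR4-D299G, 9.67 in TLR4-WT and 10.17 in untransfected cells. MTOR rose 1.33-fold, having log2 means of 8.62 in TLR4-D299G, 8.20 in TLR4-WT and 8.87 in untransfected cells. STAT3 and MTOR were both called lower in TLR4-WT than in untransfected cells (log2 differences -0.49 and -0.67). HNRNPA1 fell 1.23-fold in TLR4-D299G against TLR4-WT, a call that was lost with arrays centred.

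Markers of intestinal epithelium moved in both directions in TLR4-D299G. Of 10 measured markers 2 rose and 4 fell against untransfected cells (median 0.02), where 43.3% of all genes were called. The risers were the keratins KRT18 and KRT8 (log2 differences 0.65 and 0.58), which also rose in TLR4-WT and TLR4-T399I. KRT20, CDX2, CDH17 and VIL1 fell in TLR4-D299G. CDX2, the transcription factor of intestinal identity, had log2 means of 9.14 ± 0.01 (SD, n = 3) in TLR4-D299G, 9.99 ± 0.07 in untransfected cells, 10.04 ± 0.06 in TLR4-WT and 9.81 ± 0.05 in TLR4-T399I. It fell 1.81-fold in TLR4-D299G against untransfected cells (limma adjusted p = 2.34e-06) and 1.87-fold against TLR4-WT (limma adjusted p = 2.49e-06). The intestinal cadherin CDH17 fell 1.84-fold and 1.67-fold in these comparisons, and VIL1, which encodes villin of the microvilli, fell 1.33-fold against untransfected cells. VIL1 also fell in TLR4-WT against untransfected cells (log2 difference -0.31). Whether these changes have a part in the values of UPK1B or UCA1 was not tested.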

How the data were processed

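Expression was measured in 12 samples of Caco-2 cells, 4 groups of 3. The authors used Expression Console 1.0 with the RMA method, per the submitters' processing notes; RMA subtracts background, equalises the distributions of the arrays and combines probes into probe sets. Deposited were log2 values of 33297 probe sets, with 0 missing, and were used unchanged and unfiltered. The genome build was not given in the sources used here. The array annotation left 12083 probe sets unnamed, gave 1754 more than 1 symbol and named 19460 by a single one. All 5 members matched RefSeq, which gave gene order and promoter windows.

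Testing used limma 3.58.1 under R 4.3.3, with a model of 4 group means on all 12 arrays with empirical Bayes moderation, two-sided, for 6 comparisons, each with Benjamini-Hochberg adjustment over all probe sets. The fit was tested on simulated data. Members and lists were chosen with earlier results of these data known, so lists get counts and medians, with no test. Named genes are the members, the neighbours of UCA1 and UPK1B, the 8 genes most like each, and from each list up to 3 called genes per direction and comparison with the largest change. PPARG and LSAMP levels, KRT5, KRT13, KRT14, PSCA and SNX31 were added after their values were seen. Alternatives were another scaling, prior, filter, set of arrays, a replicate block and leaving out each array. No member had another probe set, so that alternative could not be run.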

Additional observations from a re-analysis of the deposited data

Results flagged for a closer look

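The changes against untransfected cells differed between TLR4 lines for 3 members, by limma's test between the lines. UPK3A was higher in TLR4-D299G than in TLR4-WT by 0.68 and than in TLR4-T399I by 0.84 on the log2 scale (limma adjusted p = 0.00244 and 0.000823). UCA1 was 0.92 higher in TLR4-T399I than in TLR4-WT (limma adjusted p = 6.59e-05). UPK1B differed by -0.48 between TLR4-T399I and TLR4-WT (limma adjusted p = 0.0136). UPK1B also stood above untransfected cells on all TLR4-D299G arrays and below them on all TLR4-T399I arrays, 3.65 apart on the log2 scale; that difference was not tested, since UPK1B was chosen for its TLR4-D299G values.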

How the results depend on the processing

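Each result was recomputed under 17 alternatives, 12 of them leaving out 1 array. UCA1 and UPK1B kept the direction and, within 1 SD, the size of their TLR4-D299G differences under all of these. So did the calls of UPK3A in TLR4-D299G, of UPK2 in TLR4-D299G against untransfected cells and of UCA1 in TLR4-T399I keep direction and side of the threshold. Small calls did not all hold, with their log2 differences unchanged in direction. UPK1B in TLR4-T399I against TLR4-WT was -0.48 and not called when the other groups were left out of the fit, and ran from -0.57 to -0.37 with 1 array left out. UPK2 in TLR4-T399I against untransfected cells was 0.22 and not called with a trended and robust prior or with the compared arrays alone, and ran from 0.20 to 0.24. UPK3A in TLR4-WT against untransfected cells was 0.31 and not called with arrays centred, and ran from 0.32 to 0.43. Fewer arrays were fitted in most of these; the cause was otherwise not tested. Over all probe sets, the calls in TLR4-T399I against untransfected cells numbered 9806, or 6508 with the compared arrays alone. In TLR4-T399I against TLR4-WT they numbered 3456, or 1945 with the compared arrays alone and 2119 to 3711 with 1 array left out.

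Replicate numbers were not taken to pair the samples, since the labels give no shared source and not every same-numbered pair of arrays correlated above 0.1. Deviations of same-numbered arrays from their group means correlated at -0.079 to 0.274, those of other numbers at -0.265 to 0.209, and 9 of 12 arrays were closest to their own number, which is a hint of pairing from the data. With the replicate number as a block the call of 1 of 30 member differences changed: UPK1B passed in TLR4-T399I against untransfected cells (log2 difference -0.27, limma adjusted p = 0.0404). The calls over all probe sets numbered 12335 in TLR4-D299G against untransfected cells with the block and 11785 without it.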
